A study of Mus musculus with 8 samples.

Results

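The GATA transcription factors are the 6 genes Gata1 to Gata6, and their expression was followed in newborn mouse epidermis that had lost EED. The members were the non-control probes whose RefSeq accession belongs to one of these genes. Each gene was represented by 1 probe printed as 1 spot, so the 6 members are 6 of 36799 genes and other targets on the array. All 6 passed the filter on dim probes, which 23254 targets passed, but Gata1 and Gata2 passed it only through the EED cKO arrays.

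RNA came from the back skin epidermis of C57BL/6 mice at postnatal day 0 (P0), with 4 EED cKO and 4 control mice described as biological replicates. EED cKO mice carry EED flox alleles that are deleted by Cre under the Krt14 promoter, which drives expression in keratinocytes of the basal epidermis and their progeny but not in resident immune cells or melanocytes. The control mice of the arrays are labelled as control or CTL without alleles. The paper names siblings without Cre as the controls of its PCR on EED cKO epidermis, and does not say this of the arrays. Each array of 55681 probes also received the same commercial reference (Universal Mouse Reference RNA), and every value is a log2 ratio of sample over this reference. The sample carried the dye Cy3 on replicates 1 and 3 of both genotypes and Cy5 on replicates 2 and 4. The 8 arrays share 1 slide, on which the EED cKO arrays lie in row 1 and the control arrays in row 2, so genotype and slide row cannot be told apart.

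GATA factors are zinc finger proteins that bind a short DNA sequence containing the letters GATA. Gata1, Gata2 and Gata3 are best known from blood, where Gata1 drives red cell, platelet and mast cell development, Gata2 maintains blood progenitors and Gata3 specifies T cells. Gata3 also acts in skin, where it is required for the inner root sheath of the hair follicle and for the epidermal barrier. Gata4, Gata5 and Gata6 are best known from heart and endoderm, and Gata6 also marks the upper hair follicle and the sebaceous duct. EED is a core subunit of Polycomb repressive complex 2 (PRC2), which places the repressive mark H3K27me3 on histone H3, in mammals mostly at CpG-rich promoters of developmental genes that are silent in a given cell type. The comparison addressed which members of the family changed in epidermis without EED.

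Eed itself fell in the EED cKO epidermis. Its log2 ratio was between -2.04 and -1.66 in EED cKO and between -0.46 and -0.18 in control epidermis, a log2 fold change of -1.46 (SE 0.09, limma adjusted p = 2.1e-05). The mean log2 ratio of 9 keratinocyte markers was 2.55 to 3.22 in control and 2.67 to 3.18 in EED cKO epidermis, and that of 7 dermal fibroblast markers was -3.41 to -3.03 and -3.32 to -3.15. Single markers departed from these means, with the keratinocyte gene Trp63 at -0.73 and -0.69 and the fibroblast gene Dcn at 1.82 and 1.62. These are ratios to the reference mix and do not compare levels between genes. Between 51.5% and 65.5% of the spots of an array gave a sample signal well above background. The 4 Y-linked genes averaged 1.19 and 1.02 on control replicates 2 and 3 and between -1.51 and -1.31 on the other arrays, and the X-inactivation transcript Xist was lowest on the same pair of arrays, at -2.49 and -1.85.

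CpG-rich promoters were found at most members with a promoter window. RefSeq windows of 300 bases on GRCm38.p6, which run from 250 bases before to 50 bases after the start site, were found for 4 of the 6 members, namely Gata1, Gata2, Gata3 and Gata5. The window of Gata3 held 22 CpG dinucleotides, more than 76.9% of the 32851 windows of this length. Both windows of Gata2 held more, with 32 and 29 CpG dinucleotides, and the window of Gata5 held 26. Gata1 differed from these with 4 CpG dinucleotides, more than only 31.4% of windows, against a median of 7 over all of them. The windows of Gata3 and Gata1 are shown because they stand for the CpG-rich and the CpG-poor form within the family, with CpG dinucleotides in capitals, 5′ to 3′ on the strand of the gene. Gata3 lies on the minus strand at chr2:9878551-9878850 and Gata1 on the minus strand at chrX:7967861-7968160.
Gata3: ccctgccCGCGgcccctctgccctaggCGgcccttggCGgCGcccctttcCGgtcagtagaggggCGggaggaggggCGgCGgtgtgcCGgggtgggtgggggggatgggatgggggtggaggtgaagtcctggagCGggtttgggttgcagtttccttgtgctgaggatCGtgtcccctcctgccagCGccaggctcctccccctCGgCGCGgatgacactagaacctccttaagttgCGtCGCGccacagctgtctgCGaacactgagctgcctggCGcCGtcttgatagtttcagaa
Gata1: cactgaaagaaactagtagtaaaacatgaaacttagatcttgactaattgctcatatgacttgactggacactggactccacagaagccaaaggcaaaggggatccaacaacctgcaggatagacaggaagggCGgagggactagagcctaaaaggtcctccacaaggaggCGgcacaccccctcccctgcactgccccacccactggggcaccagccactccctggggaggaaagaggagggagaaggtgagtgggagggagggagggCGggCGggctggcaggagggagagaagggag
Forms of the sequence that GATA factors bind were searched on both strands, namely the hexamer AGATAA, the hexamer AGATAG, the hexamer TGATAA and the hexamer TGATAG. The last of these was present in the Gata3 window on the strand of the gene, beginning 36 bases after the start site, and none of the hexamers was found in the windows of Gata1, Gata2 or Gata5. At least 1 of them was present in 29.8% of all windows. A match is a description of the letters in the window and not of binding.

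Of the 6 members, 3 changed in EED cKO epidermis. Gata6 and Gata4 rose, Gata3 fell, and Gata1, Gata2 and Gata5 did not pass the test. The call was an adjusted p below 0.05 (limma with genotype and dye as terms, Benjamini-Hochberg over all 23254 targets), a threshold that 21.6% of all targets passed, 11.7% with higher and 9.89% with lower values in EED cKO. Of the calls on all targets, 54.3% were higher, and with median centring in place of loess normalization 39.9% were. Only Gata6 also reached a 2-fold change, as did 1.20% of targets in either direction and 1.10% with higher values in EED cKO. The groups of Gata3, Gata4 and Gata6 did not overlap, which held for 17.1% of all targets. Without the arrays of control replicates 2 and 3, the same test gave 3 calls among the members again. With Y-linked signal as a covariate it gave 2, because Gata3 lost its call (log2 fold change -0.47, adjusted p = 0.0859). The difference in the reference channel between the genotypes was between -0.08 and 0.08 on the log2 scale for every member.

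**Figure D1:**
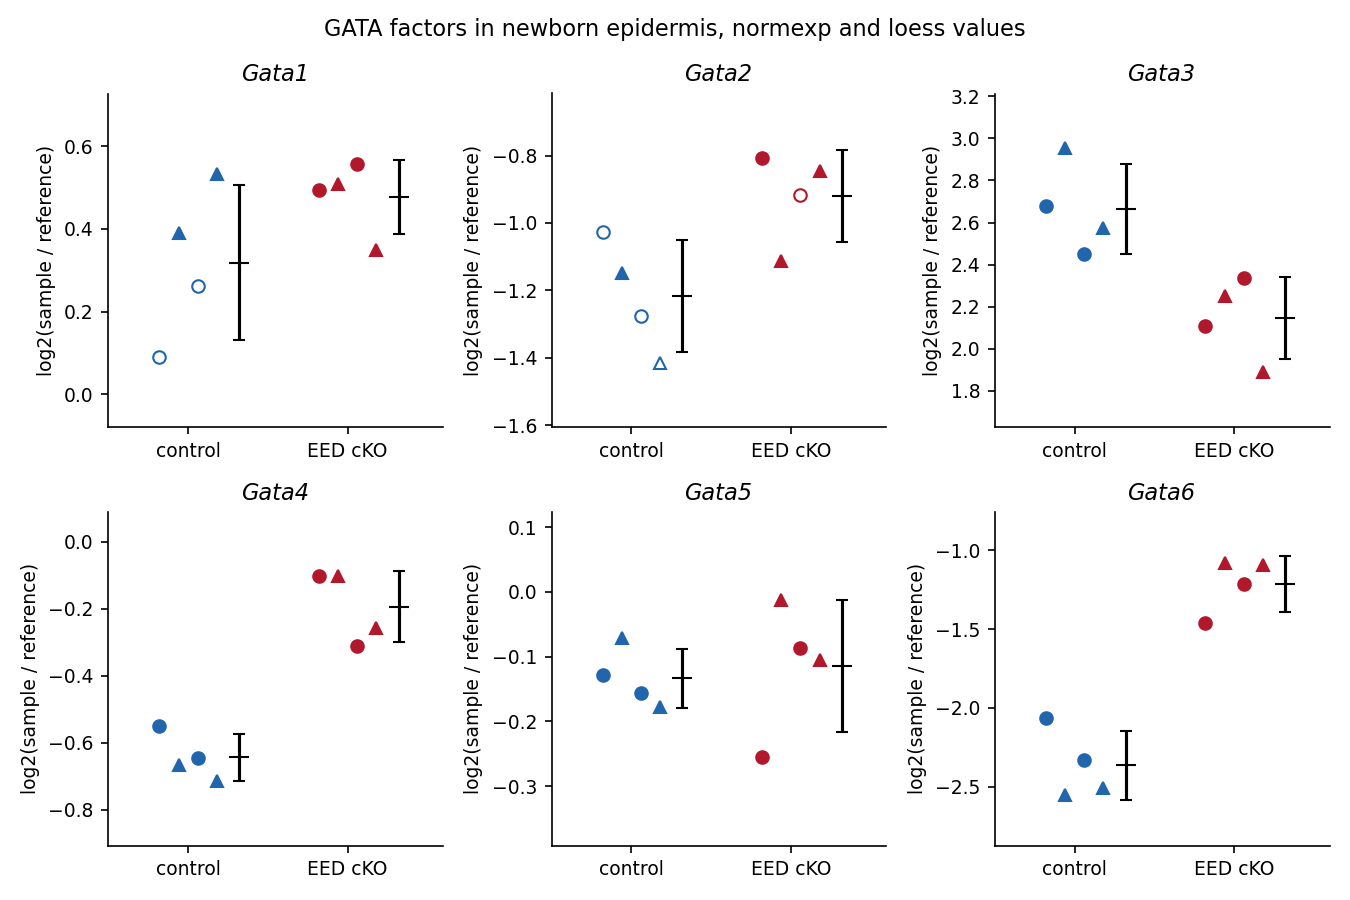
Log2 ratio of sample over reference (y axis) of each GATA factor on the 4 control (blue) and 4 EED cKO (red) arrays, after normexp background correction and loess. Circles are arrays with the sample in Cy3 and triangles with the sample in Cy5, open symbols are spots not well above background in the sample channel, and the bar is the mean with the SD (n = 4). The genotypes are apart for Gata3, Gata4 and Gata6 and overlap for Gata1, Gata2 and Gata5. The y axes differ and do not start at 0.

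Gata6 had the largest difference of the family. In EED cKO epidermis its log2 ratios in replicates 1 to 4 were -1.46, -1.08, -1.21 and -1.10. In control epidermis they were -2.07, -2.55, -2.33 and -2.51. Every EED cKO array was above every control array, and on every array the epidermis gave less signal than the reference. The mean was -1.21 ± 0.18 in EED cKO and -2.36 ± 0.22 in control (SD, n = 4). The log2 fold change was 1.15 (SE 0.13, 95% interval 0.87 to 1.44), that is 2.22-fold higher in EED cKO (adjusted p = 0.000656). The exact permutation test of the 8 arrays gave a two-sided p = 0.0286, the smallest that 4 against 4 arrays can give. In size this change exceeded that of 99.2% of the targets tested.

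The spots behind Gata6 were dim in control epidermis. The uncorrected sample signal was 104, 196, 134 and 137.5 in EED cKO and 56, 67, 68 and 54 in control replicates 1 to 4, whereas the reference gave 654 to 812 on all 8 arrays. The groups were therefore also apart before any normalization, and all 8 spots were called well above background. The background correction adds 50 to each channel, which draws the ratio of a dim spot towards 0. With the log ratio that Feature Extraction computes without such an offset, the difference of Gata6 was 2.11 on the log2 scale, or 4.32-fold. Within the arrays with the sample in Cy3 the difference was 0.86, and within those in Cy5 it was 1.44.

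Gata4, the second member that rose, changed less. Its log2 ratios were -0.10, -0.10, -0.31 and -0.26 in EED cKO replicates 1 to 4. In control replicates they were -0.55, -0.67, -0.65 and -0.72. The lowest EED cKO array lay above the highest control array. The log2 fold change was 0.45 (SE 0.08, 95% interval 0.28 to 0.62), or 1.37-fold (adjusted p = 0.00442, exact permutation p = 0.0286), from means of -0.19 ± 0.11 and -0.64 ± 0.07 (SD, n = 4). The sample signal was 69 to 110 in EED cKO and 59 to 73.5 in control, so the uncorrected signals of the genotypes overlapped. With the Feature Extraction log ratio the difference was 0.89, or 1.86-fold. It was 0.39 within the Cy3 and 0.51 within the Cy5 arrays.

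Gata3 was the member that fell. Its log2 ratios were 2.11, 2.25, 2.34 and 1.89 in EED cKO replicates 1 to 4 and 2.68, 2.95, 2.45 and 2.57 in control replicates 1 to 4. The epidermis gave more signal than the reference on every array, and the highest EED cKO array lay below the lowest control array. The means were 2.15 ± 0.20 and 2.66 ± 0.21 (SD, n = 4), a log2 fold change of -0.52 (SE 0.13, 95% interval -0.81 to -0.23), or 1.43-fold lower in EED cKO (adjusted p = 0.0206, exact permutation p = 0.0286). The spots were bright, with sample signals of 2575 to 4874 in EED cKO and 3311.5 to 9508.5 in control, so the offset mattered little and the Feature Extraction log ratio gave -0.46. The difference was -0.34 within the Cy3 and -0.69 within the Cy5 arrays. The call was lost when EED cKO replicate 1 or 4 or control replicate 2 was left out, with log2 fold changes of -0.51, -0.41 and -0.41 (adjusted p = 0.0523, 0.0593 and 0.0596), and with the Feature Extraction log ratio (adjusted p = 0.0651).

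Gata2 missed the threshold. Its log2 ratios were -0.81, -1.11, -0.92 and -0.84 in EED cKO and -1.03, -1.15, -1.28 and -1.42 in control replicates 1 to 4. The other 3 EED cKO arrays were above all control arrays, while replicate 2 lay among them. The log2 fold change was 0.30 (SE 0.10, 95% interval 0.08 to 0.51, adjusted p = 0.0541, exact permutation p = 0.0571). The spot was well above background on 3 of 4 EED cKO arrays but only on 1 of 4 control arrays, with sample signals of 36 to 55 and 26 to 47.5 against a reference of 150 to 211.5. With the Feature Extraction log ratio the arrays lay between -2.64 and -2.34 in EED cKO and between -5.74 and -2.91 in control, and the difference was 1.99, or 3.96-fold (adjusted p = 0.0489). The spread of the control arrays on that scale was large, with an SD of 1.22 against 0.14 in EED cKO. The size of the Gata2 difference therefore depends on how spots near background are treated.

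**Figure D2:**
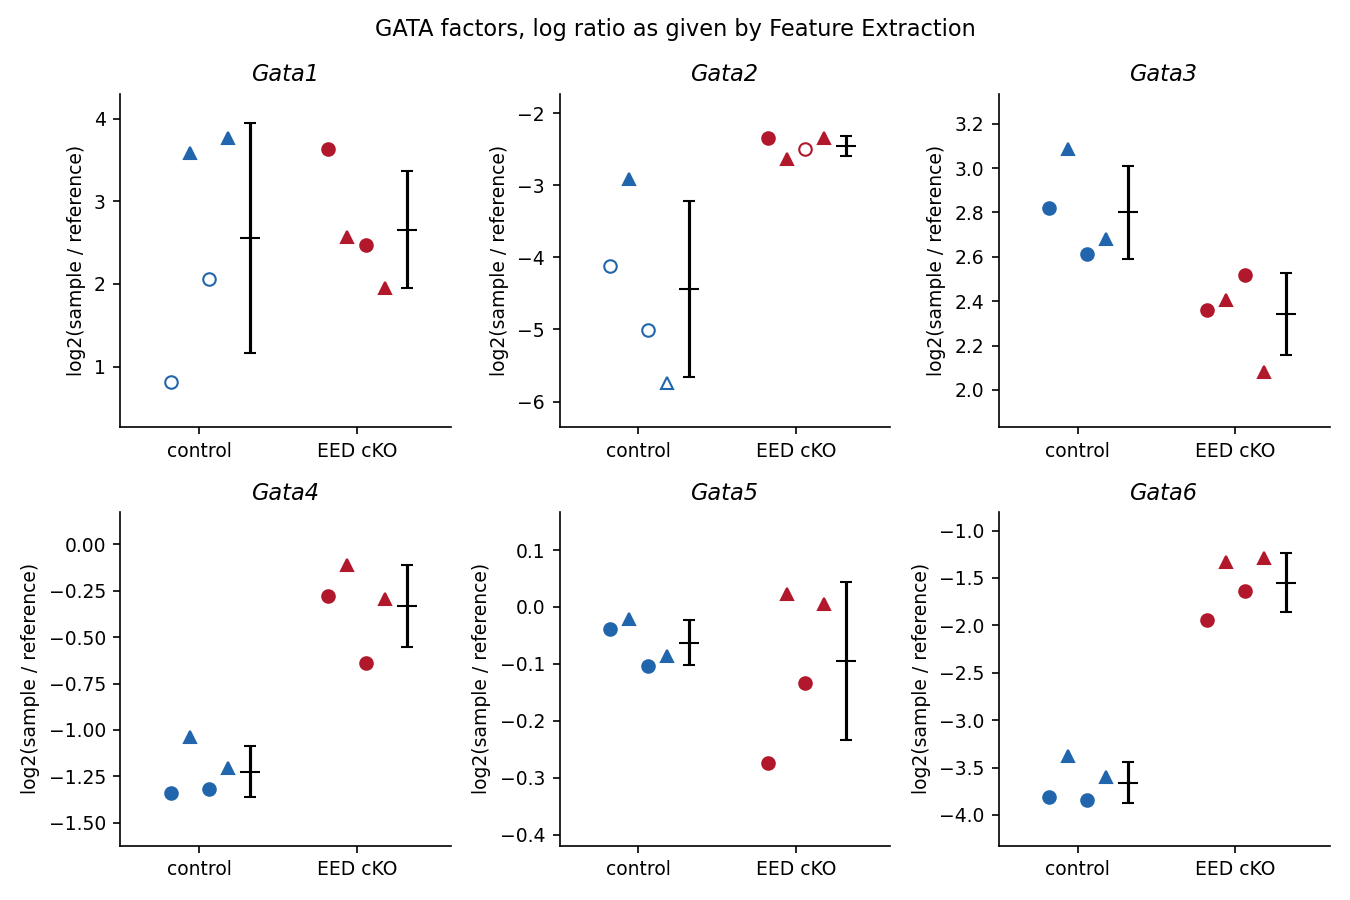
Log2 ratio of sample over reference (y axis) of each GATA factor from the log ratio of Feature Extraction, which subtracts background without an offset, with symbols as in the plot of the normexp and loess values. Gata4 and Gata6 are farther apart than after normexp, the control arrays of Gata2 spread from -5.74 to -2.91, and the genotypes overlap for Gata1 and Gata5.

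Gata1 and Gata5 gave no call. The log2 ratios of Gata1, which lies on the X chromosome, were 0.49, 0.51, 0.56 and 0.35 in EED cKO and 0.09, 0.39, 0.26 and 0.53 in control replicates 1 to 4. The groups overlapped, and the log2 fold change was 0.16 (95% interval -0.06 to 0.38, adjusted p = 0.278). Its difference was 0.35 within the Cy3 and -0.03 within the Cy5 arrays. The sample spot was well above background on 4 of 4 EED cKO arrays and on 2 of 4 control arrays, with signals of 43 to 63.5 and 38.5 to 56, but the reference spot was well above background on 0 of 8 arrays, so the ratio has no measured denominator. Gata5 was measured in both channels on all 8 arrays, with log2 ratios of -0.26, -0.01, -0.09 and -0.10 in EED cKO and -0.13, -0.07, -0.16 and -0.18 in control replicates 1 to 4. Its log2 fold change was 0.02 (95% interval -0.14 to 0.18, adjusted p = 0.883), an interval that covers small changes in either direction.

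**Figure D3:**
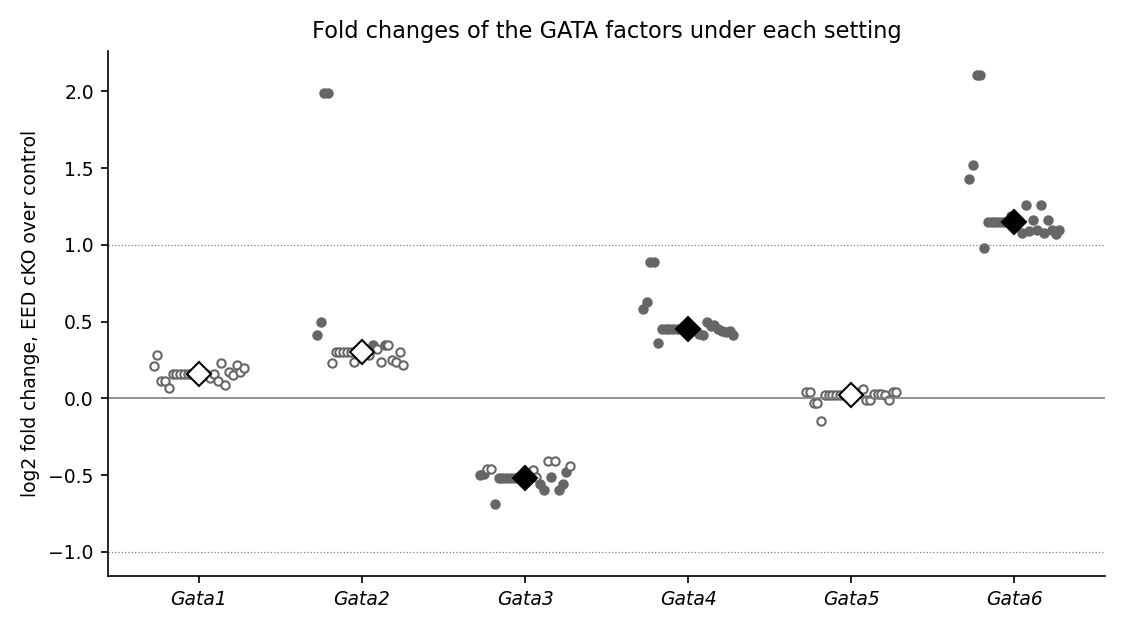
Log2 fold change of EED cKO over control (y axis) of each GATA factor as reported (diamond) and under each alternative setting or left-out array (circles), filled where the adjusted p was below 0.05. Dotted lines mark a 2-fold change. Gata4 and Gata6 are above 0 with filled symbols throughout, Gata3 is below 0 with some open symbols, and Gata2 reaches 1.99 with the Feature Extraction and the deposited log ratios.

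The neighbours of a member were the nearest genes with a probe on either side in the RefSeq annotation. Those that were tested gave no common pattern. Glod5 beside Gata1, Dnajb8 beside Gata2, Blk beside Gata4, Gata5os beside Gata5 and 9130001E16Rik beside Gata6 were not tested. Only Gata3 therefore had a tested gene on both sides. Rbbp8, a neighbour of Gata6 that encodes a DNA repair protein, had a log2 fold change of -0.08 (SE 0.11, adjusted p = 0.643). Neil2, a DNA glycosylase gene next to Gata4, rose with a log2 fold change of 0.54 (SE 0.12, adjusted p = 0.0111). Of the neighbours of Gata3, Celf2 had a log2 fold change of 0.13 and the noncoding RNA 4930412O13Rik of 0.21 (adjusted p = 0.332 and 0.0804). Rpn1, which lies next to Gata2 and encodes a subunit of the oligosaccharyltransferase, fell by 0.35 on the log2 scale (adjusted p = 0.0259). Hdac6 next to Gata1 and Rbbp8nl next to Gata5 did not pass the test, with 0.10 and 0.03.

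For the members that changed, genes with the most similar profile were sought by the root mean square (RMS) difference of log2 ratios, each centred on its own mean over the 8 arrays. The nearest profiles to Gata6 were those of the homeobox gene Dlx2, Teddm3 and the desmosomal gene Pkp2, with RMS differences of 0.078, 0.104 and 0.109 and log2 fold changes of 1.13, 1.21 and 1.21. Among those nearest to Gata4 were Nog, which encodes the BMP antagonist noggin, and the immediate early gene Egr4, at 0.044 and 0.067. Those nearest to Gata3 were Rnf43, which encodes a ubiquitin ligase acting on Wnt receptors, Gatad2a and the matrix metalloproteinase gene Mmp2, at 0.076, 0.086 and 0.095. These are descriptions over the same 8 arrays, which share the dye and the slide position of each replicate.

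Among 9 other genes with a GATA-type zinc finger, 8 were tested. Of these 1 rose, 3 fell and 4 did not pass, and the median log2 fold change was -0.12 against 0.02 over all targets. Trps1, a repressor that binds GATA sites and is mutated in tricho-rhino-phalangeal syndrome, rose. Its log2 ratios were -1.61, -1.52, -1.49 and -1.72 in EED cKO and -2.46, -3.03, -2.73 and -2.89 in control replicates 1 to 4, with no overlap. The log2 fold change was 1.19 (SE 0.10, 95% interval 0.98 to 1.41), or 2.29-fold (adjusted p = 0.000119), and the other 2 probes of Trps1 gave 1.12 and 1.04. With the Feature Extraction log ratio the difference was 2.29 on the log2 scale. The genes that fell all encode subunits of the NuRD chromatin remodelling complex. They were Gatad2a (-0.60, SE 0.10, adjusted p = 0.00448), Mta2 (-0.51, SE 0.08, adjusted p = 0.00328) and Mta3 (-0.44, SE 0.10, adjusted p = 0.0117). Another probe of Gatad2a gave -0.33, and another probe of Mta3 gave -0.07. Mta1, Gatad2b, Gatad1 and Zglp1 had log2 fold changes of -0.08, -0.09, -0.14 and 0.00 and did not pass.

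The list of proteins that bind GATA factors or act with them had 24 genes, of which 18 were tested. Of these 3 rose, 7 fell and 8 did not pass, with a median of -0.07. Of the 15 that passed the filter in both genotypes 2 rose and 7 fell (median -0.20). Zfpm1, which encodes the classical cofactor FOG1, fell with a log2 fold change of -0.59 (SE 0.12, adjusted p = 0.00866), although another of its probes gave -0.13. The LIM-domain adaptor gene Lmo4 fell by 0.66 on the log2 scale (adjusted p = 0.00346) and the E protein gene Tcf12 by 0.48 (adjusted p = 0.0171), while a second probe of Tcf12 gave 0.15. The chromatin regulators Chd4 and Ep300 and the serum response factor gene Srf fell by 0.28, 0.28 and 0.35 on the log2 scale (adjusted p = 0.0416, 0.0313 and 0.0377). A second probe of Srf gave -0.14. Those that rose encode transcription factors of blood and heart. Runx1 had a log2 fold change of 0.74 (SE 0.14, adjusted p = 0.00693) on the brighter probe and 0.10 on another. Nkx2-5 had 0.47 (SE 0.10, adjusted p = 0.0114). Tbx5 exceeded background on 0 of 4 control arrays and passed the filter only through EED cKO, and its fitted value gave a limma adjusted p = 0.0138. It was higher in EED cKO by at least 1.19-fold. This bound sets the normalized sample signal in EED cKO against the higher of the spot's own signal and the lowest signal called above background on each control array. Lmo2, a blood partner of Gata1 and Gata2, had a log2 fold change of 0.00 (adjusted p = 0.998).

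**Figure D4:**
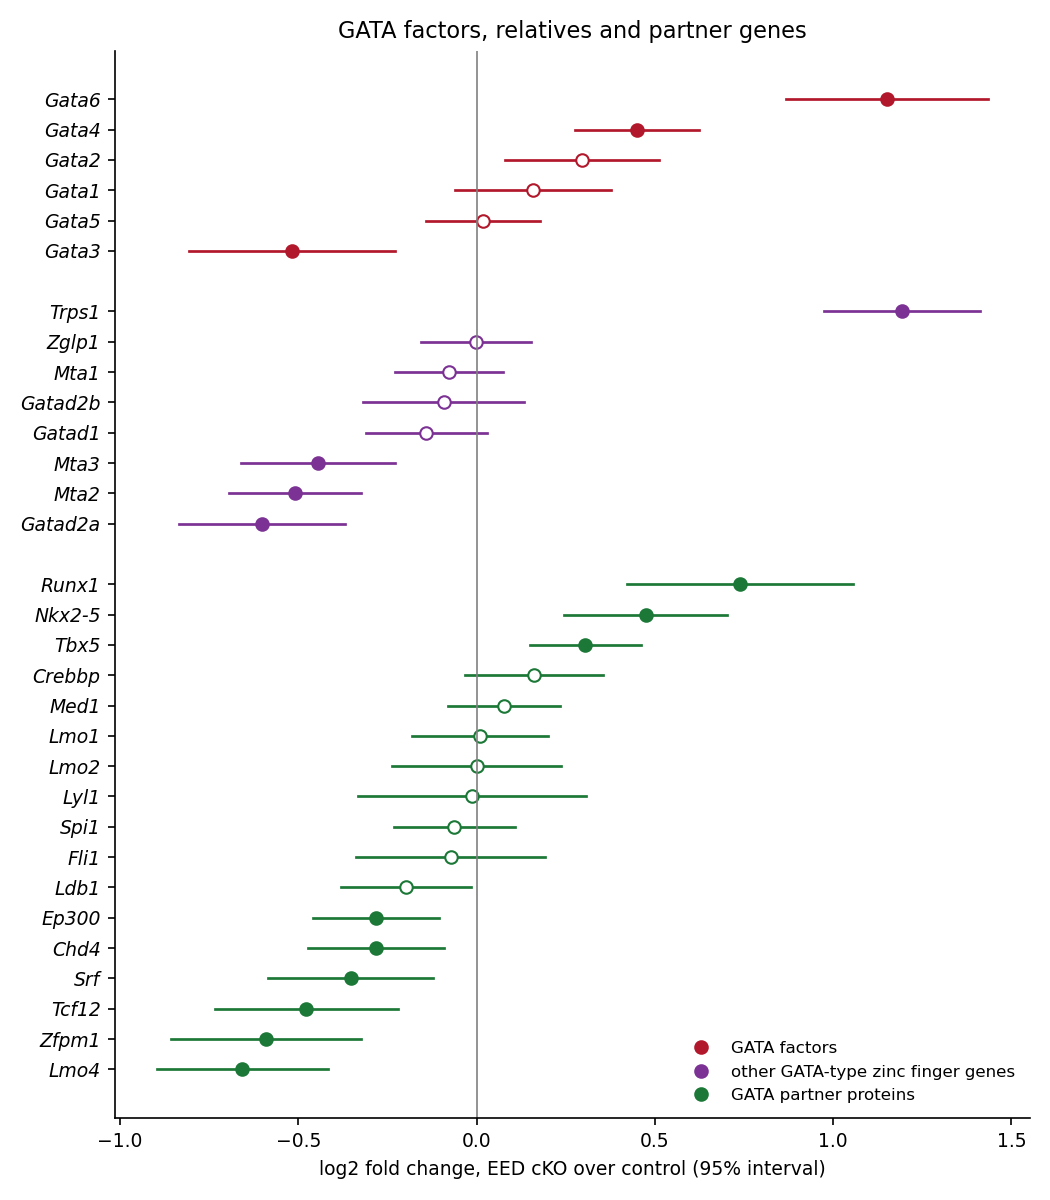
Log2 fold change of EED cKO over control (x axis) with its 95% interval for the GATA factors (red), the other genes with GATA-type zinc fingers (purple) and the genes of GATA partner proteins (green), sorted within each group and filled where the adjusted p was below 0.05. Trps1 at 1.19 and Gata6 at 1.15 are farthest to the right, and Lmo4 at -0.66, Gatad2a at -0.60 and Zfpm1 at -0.59 farthest to the left. The value of Tbx5 is the fitted one, since its control spots were not above background, and 1 tested partner gene is not drawn.

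Genes of tissues and skin structures in which GATA factors are known to act were grouped by tissue or structure. Whether GATA factors act on the listed genes was not tested. Direction was checked for the 52 called genes of all lists, including the members, their relatives and partners and the cell type markers. With median centring or with the Feature Extraction log ratio 0 of them turned sign. These genes were taken for their call on the same arrays, so a kept sign was likely beforehand. Of 9 luminal epithelial genes tested, a list chosen for the setting of Gata3 in mammary gland and bladder, 7 rose, 0 fell and 2 did not pass. Of the 7, Foxa1, Esr1 and Elf5 passed the filter only through EED cKO, where they were higher, so their rise is not independent of the filter. Of the 6 genes measured in both genotypes 4 rose and 0 fell (median 0.56). The simple epithelial keratin Krt7 rose most, with a log2 fold change of 3.00 (SE 0.12, adjusted p = 1.6e-06), followed by the mammary transcription factor gene Elf5 (1.29, SE 0.23, adjusted p = 0.00555), which was well above background on only 2 of 4 control arrays, and by Krt19 (0.68, adjusted p = 0.0015) and Krt8 (0.65, adjusted p = 0.000668). Krt8 and Krt18 of this list are also Merkel cell keratins. Of 5 Merkel cell genes tested, Atoh1, Isl1 and Sox2 passed the filter only through EED cKO, and the other 2, Cck and Krt20, rose. The log2 fold changes were 1.64 for Cck and 1.12 for Krt20 (limma adjusted p = 0.00183 and 6.9e-05). Atoh1 and Isl1 were at 0.87 and 0.83, but they were counted through their EED cKO signal. The mean log2 ratio of all 5 was 0.76 to 0.98 in EED cKO and -0.36 to 0.05 in control. This mean includes the 3 genes that passed only through EED cKO, so its separation is not independent of the filter. The part of Merkel cells in the luminal list and in the members was not tested.

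Of 12 genes of the inner root sheath and hair cortex, the structures that need Gata3, 3 rose, 1 fell and 8 did not pass (median 0.13). The sheath genes Krt27, Tchh and Krt72 rose, with log2 fold changes of 1.33, 0.94 and 0.93 (adjusted p = 0.0442, 0.0393 and 0.0158). The genotypes overlapped for Krt27 and Krt72. The sheath keratins did not share a direction, since Krt73, Krt28 and Krt71 had 0.21, -0.26 and -0.75 and did not pass. Lef1, a Wnt effector of the hair bulb, fell by 0.76 on the log2 scale (adjusted p = 0.00439). Among 12 genes of the sebaceous duct and the junctional zone, where Gata6 is known to act, 2 rose, 1 fell and 9 did not pass (median 0.10). Pparg and Plin2, a regulator and a coat protein of lipid droplets in sebocytes and fat cells, rose with log2 fold changes of 0.56 and 0.53 (adjusted p = 0.00169 and 0.00237), and the stem cell gene Lrig1 fell by 0.47 on the log2 scale (adjusted p = 0.0395). Krt79, the keratin of the duct, had a log2 fold change of 0.03.

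Heart and endoderm genes are the classical setting of Gata4, Gata5 and Gata6, and 20% and 33.3% of those tested were called, against 21.6% of all targets. These shares count genes that passed the filter only through EED cKO. Of the 8 cardiac genes that passed in both genotypes 1 rose and 0 fell, and of 4 such endoderm genes 0 rose and 1 fell. Of 10 cardiac genes tested 2 rose and 8 did not pass (median 0.16). They were Isl1, which is also a Merkel cell gene and passed the filter only through EED cKO, and the atrial myosin light chain gene Myl7 (0.42, SE 0.12, adjusted p = 0.0377). Only 6 of 17 endoderm genes were bright enough to be tested, and of these 1 rose, 1 fell and 4 did not pass (median 0.09). Gsc, a homeobox gene of the early mesendoderm, was well above background on 0 of 4 control arrays and passed the filter only through EED cKO. It was higher in EED cKO by at least 3.17-fold, and its fitted value gave a limma adjusted p = 0.000111. The chemokine receptor gene Cxcr4 fell by 0.49 on the log2 scale (adjusted p = 0.0274). Hnf4a, Alb and Ttr, which mark differentiated endoderm, were well above background on 0 of 8 arrays.

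Blood and vessel genes were examined because Gata1 and Gata2 act there. Of 14 erythroid and megakaryocyte genes tested 1 rose, 0 fell and 13 did not pass (median 0.32), and the 1 was the erythropoietin receptor gene Epor (0.44, SE 0.09, adjusted p = 0.00813). Hbb-b1 of this list passed the filter only through EED cKO. Of the 13 genes that passed in both genotypes 1 rose and 0 fell (median 0.21). The globin genes Hba-a1 and Hbb-bt had log2 fold changes of 1.21 and 1.22 with wide errors (SE 0.50 and 0.55, adjusted p = 0.117 and 0.146). With the Feature Extraction log ratio Hba-a1 was at 1.18, while Hbb-bt turned to -0.27. The mean log2 ratio of the list was 0.28 to 0.80 in EED cKO and -0.13 to 0.64 in control, so the genotypes overlapped, and the red cell genes Rhag and Hba-x were well above background on 0 of 8 arrays. Of 4 mast cell genes tested 0 rose and 1 fell, which was Hpgds, a prostaglandin synthase gene (log2 fold change -0.68, adjusted p = 0.0035), and the mast cell proteases Cpa3 and Cma1 were well above background on 0 of 8 arrays.

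Of 7 endothelial genes tested 3 rose, 0 fell and 4 did not pass (median 0.20). Pecam1 rose with a log2 fold change of 0.89, Kdr with 0.62 and Nos3 with 0.48 (adjusted p = 0.00386, 0.00218 and 0.00585). A second probe gave only 0.03 for Kdr and 0.19 for Nos3. The mean of the list was 0.44 to 0.54 in EED cKO and 0.12 to 0.22 in control, whereas the defining endothelial genes Cdh5, Tek and Tie1 were well above background on 0 of 8 arrays. This mean includes Cldn5, which passed the filter only through EED cKO, so its separation is not independent of the filter. Of the 6 endothelial genes that passed in both genotypes 3 rose and 0 fell (median 0.34). Of 11 T cell and innate lymphoid genes, the setting of Gata3 in blood, 2 rose, 1 fell and 8 did not pass (median -0.12). Of the 10 that passed the filter in both genotypes 2 rose and 1 fell (median -0.04). Cd3e and Cd4 rose by log2 fold changes of 0.54 and 0.40 (adjusted p = 0.00351 and 0.0084), and a second probe of Cd4 gave 0.18. The CD3 chain genes Cd3d and Cd3g did not follow Cd3e, with -0.26 and 0.05, and did not pass. Bcl11b, which keratinocytes also express, fell by 0.96 on the log2 scale (adjusted p = 0.0158). In whole epidermis, fewer cells of a type and less RNA per cell cannot be told apart.

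**Figure D5:**
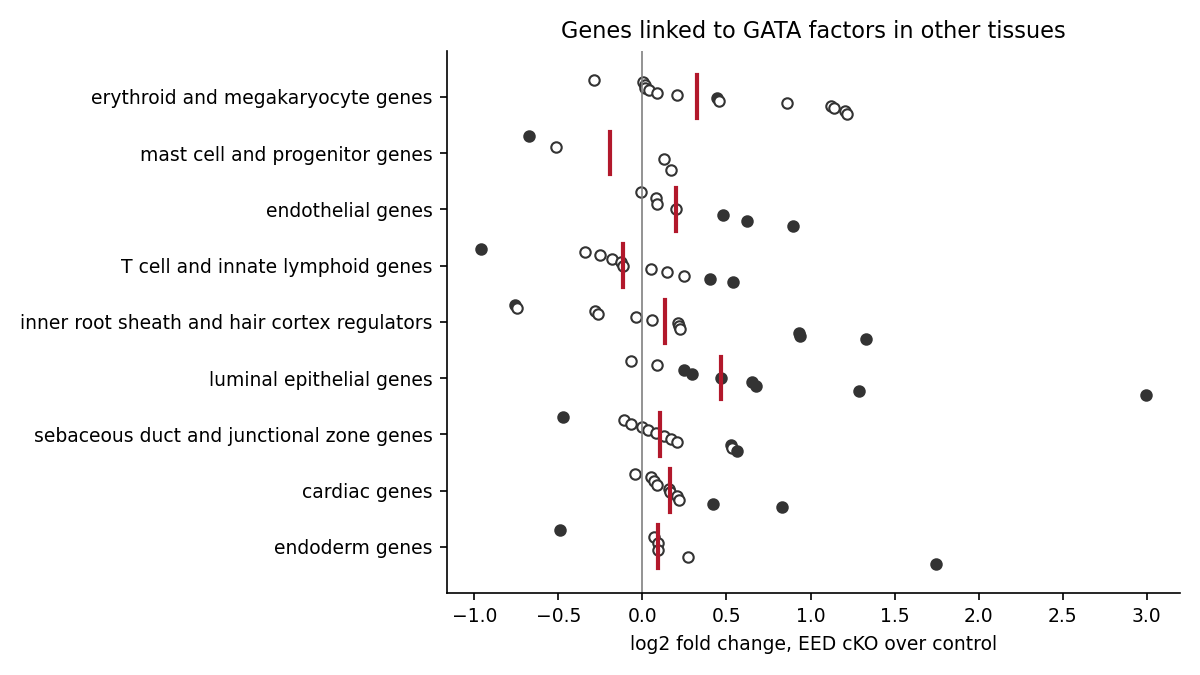
Log2 fold change of EED cKO over control (x axis) of each tested gene in the lists of tissues and skin structures in which GATA factors act (y axis). Symbols are filled where the adjusted p was below 0.05, and the median of each list is a red line. The luminal epithelial list has 7 of 9 genes filled on the right, 3 of which passed the filter only through EED cKO, and Krt7 lies at 3.00. The values of Gsc, Tbx20 and Sox17 are fitted ones, since their control spots were not above background.

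Markers of the cell types that epidermis can hold gave these values beside the members. Of 9 keratinocyte markers 0 rose and 1 fell, which was the integrin gene Itga6 (log2 fold change -0.74, adjusted p = 0.0032), and Krt14 had 0.10. Of 7 dermal fibroblast markers 1 rose, which was Lum (0.50, adjusted p = 0.0121), and of 3 muscle markers tested 0 changed. Of 7 Langerhans and myeloid markers tested 2 rose, which were the antigen presentation genes H2-Ab1 and Cd74 (1.55 and 0.46, adjusted p = 0.00941 and 0.044). The other 5 did not pass, and the median of the 7 was 0.05. Of the 6 that passed the filter in both genotypes 2 rose and 0 fell (median 0.03). Cd207 of this list was well above background on 0 of 4 EED cKO and 1 of 4 control arrays and was not tested. Of 6 melanocyte markers 1 fell, which was Sox10 (-0.50, adjusted p = 0.0491). The other 5 melanocyte markers did not pass, and the median of the 6 was 0.18. The part of any of these cell types in the changes of Gata3, Gata4 and Gata6 was not tested.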

How the data were processed

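Expression was measured on 8 two-colour Agilent mouse arrays. The authors extracted the scanned images with Agilent Feature Extraction 12.0.1.1 (per the submitters' processing notes) and deposited, per array, spot and local background intensity values without normalization, flags, and the log10 of the Cy5 to Cy3 ratio after their software's own background subtraction and dye normalization. The deposited table of log2 ratios equals the processed signals turned to sample over reference, within 7.33e-06 for probes with 1 spot.

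Median spot intensities were corrected by normexp (offset 50) on all spots and normalized by loess with control spots at weight 0. Control and outlier spots were left out, swapped arrays were turned, spots were averaged, and the probe with the highest mean signal stood for a gene. RefSeq accessions (GRCm38.p6) matched 28026 of 29796 probes so named. The array design was annotated on mm9, so no coordinates of probes or genes are given beside the RefSeq promoter windows of GRCm38.p6. To be tested, a target had to exceed background clearly, by the flag of the sample dye, in 3 or more of the 4 arrays of either genotype. The 19 missing values stayed missing.

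The genotype effect was estimated with limma 3.58.1 under R 4.3.3 (lmFit, eBayes, genotype plus dye, Benjamini-Hochberg), and single genes also by exact permutation over 70 assignments. On simulated arrays for this comparison with 200 of 23254 targets made 3-fold different, 198 and 197 were recovered and 0 others were called. The called members changed less, by 1.37-fold to 2.22-fold, and 21.6% of the real targets were called. The simulation therefore gives no recovery or error rate for changes of that size. Where a group was well above background on no array, only a bound is given. The number of arrays limits the precision.

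The members, gene lists and tests were chosen with earlier results of these data known. Named are all members, Eed, relatives and partners past the threshold, up to 4 past it per other list, and the 3 nearest profiles per called member. Other genes were named after their values were seen, and a few genes that the rule takes are not reported here. Same-numbered arrays deviated together (correlations 0.49, 0.68, 0.33 and 0.36). The number also marks dye and slide column, and the labels do not say what else it stands for. Alternatives covered background correction, log ratio, normalization, filter, probe choice, dye term, replicate block, array weights, variance trend, the methods' t-test, Y-linked signal and each array left out. The sample channel alone, and leaving out both arrays with high Y-linked signal, were added after seeing the data.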

Additional observations from a re-analysis of the deposited data

How the results depend on the processing

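Gata4 and Gata6 kept their direction and their call in all 25 alternatives, with log2 fold changes of 0.36 to 0.89 and 0.98 to 2.11 (highest adjusted p = 0.0494 and 0.0202, limma or the methods' t-test). The alternatives are not all separate checks. Aquantile normalization, the filter settings and the median over probes left the members' fold changes as they were, since each member had 1 probe. The deposited log ratios repeat those of Feature Extraction. All counts of alternatives given here include these settings. Gata1 stayed between 0.07 and 0.28 without a call (adjusted p 0.128 to 0.925). Gata3 kept its direction in all 25 (-0.69 to -0.41) and its call in 17. It was lost with the Feature Extraction and the deposited log ratios (-0.46 each), the methods' t-test (-0.52, adjusted p = 0.103), the Y-linked genes as a covariate (-0.47, adjusted p = 0.0859) and the sample channel alone (-0.44, adjusted p = 0.0517). With 1 array left out it ranged from -0.60 to -0.41. Gata2 passed the threshold in 7 of 24 alternatives, namely without background correction (0.41), with an offset of 16 (0.50), with the Feature Extraction and the deposited log ratios (1.99 each), with an intensity trend (0.30, adjusted p = 0.0454), and without EED cKO replicate 2 or control replicate 1 (0.35 each). It was not tested under the stricter filter, and with 1 array left out it ranged from 0.24 to 0.35. Gata5 changed sign with the Feature Extraction and the deposited log ratios (-0.03 each) and with median centring (-0.15), and ranged from -0.01 to 0.06 with 1 array left out, never with a call.

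The count of members called was 2 to 4. The count that also reached a 2-fold change was 2 with the Feature Extraction and the deposited log ratios, which added Gata2, and 0 with median centring, where Gata6 was at 0.98. The replicate block in place of the dye term changed no call among the members (Gata3 -0.52, Gata4 0.45 and Gata6 1.15), so the pairing altered none. Over all targets 5032 were called, against 2548 with median centring, 2360 without the dye term, 896 with the methods' t-test, 2800 with the Y-linked covariate, 3341 and 2956 without EED cKO replicates 3 and 4, 2732 without control replicate 2 and 2580 without both arrays with high Y-linked signal. With a 2-fold change 278 were called, against 704 with the Feature Extraction or the deposited log ratios, 433 with an offset of 16 and 172 with the methods' t-test. The causes were not tested. Signal over background limits Gata1 and Gata2, whose control spots were above background on 2 and 1 of 4 arrays.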
